A study of Homo sapiens with 9 samples.

Results

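SGK1, its relative SGK3, the SGK1 substrate NEDD4L, the glucocorticoid receptor gene NR3C1 and 4 genes that glucocorticoids induce in many cells (FKBP5, TSC22D3, KLF9 and DUSP1) were examined in U2-OS cells, an established human osteosarcoma line. The 8 genes were listed by symbol and matched by Ensembl identifier, out of 60609 identifiers counted. The list was chosen by SGK1 counts, which earlier results of these data had lower in both NCBP2 clones, so its level against vector is given as a description with no test. All 8 genes passed the filter on low counts, as did 21682 genes in all.

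RNA was sequenced after removal of ribosomal RNA from 9 libraries, although the labels also call the molecule polyadenylated RNA. Clone A1 and clone A4 both overexpress NCBP2, the cap-binding subunit of the nuclear cap-binding complex, and each gave 3 libraries (replicates A, B and C). The 3 vector libraries came from 3 clones made in the same way with an empty vector, 1 library per clone. All cells were grown in medium with serum, and the labels name no hormone treatment. The labels do not say whether libraries of 1 clone came from separate cultures, so p-values measure only the spread between libraries, and the NCBP2 arm rests on 2 clones.

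The glucocorticoid receptor waits in the cytoplasm with HSP90 and FKBP-type chaperones, moves to the nucleus when it binds hormone, and binds paired hexamers of DNA called glucocorticoid response elements. SGK1 is a short-lived kinase whose gene responds to glucocorticoids, mineralocorticoids, serum and osmotic stress. It is activated by mTORC2 and PDPK1 and phosphorylates the ubiquitin ligase NEDD4L, which then no longer removes the epithelial sodium channel from the membrane. U2-OS cells are often used as hosts for an introduced glucocorticoid receptor.

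Letters of a glucocorticoid response element were searched in the 1500 bases before each RefSeq start site, since several of the listed genes are known to respond to the hormone. The loose pattern, GNACA and TGTNC with any 3 bases between them, reads the same on both strands and was found in 1 of 23 windows searched, which belong to 7 of the 8 genes. It lay 1171 bases before the SGK1 start at chr6:134174866 (hg38, minus strand). The window chr6:134176005-134176057 is shown 5′ to 3′ on the minus strand, with the matching letters in capitals.
SGK1 upstream match: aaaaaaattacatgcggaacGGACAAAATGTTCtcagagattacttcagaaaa
In GENCODE release 44 this stretch lies in introns of 7 longer SGK1 transcripts and overlaps 0 exons. Among 35116 start sites, 1.84% had a match to this pattern in a window of the same length. The full palindrome, AGAACA and TGTTCT with any 3 bases between them, contains the loose pattern. It had 0 matches in the 23 windows and was found before 0.0142% of all starts. SGK3 was not matched in the RefSeq table. A match describes letters only and is not shown to be a bound site.

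Counts in genes ranged from 29234022 to 50554080 per library. Clone A1 replicate A had the lowest total and stood apart, with correlations of log2 CPM to the other libraries of 0.899 to 0.928, against 0.947 to 0.970 among all other pairs. NCBP2 was at 95.8 ± 4.46 CPM (counts scaled to the library total, SD, n = 3) in vector, 317 ± 27.0 in clone A1 and 763 ± 291 in clone A4, so both clones carried the labelled change. Of 9 markers of the osteoblast lineage, RUNX2, COL1A1 and SPARC were high. ALPL, SPP1 and COL1A2 had group means of at most 3.11 CPM, SP7 and BGLAP were at or near 0, and IBSP had 0 counts in all libraries. Summed CPM of the 9 was 2170 to 2763 in clone A1, 3025 to 3739 in clone A4 and 3064 to 3942 in vector, so clone A1 lay below vector. Of the 6 osteoblast markers tested, 2 were lower in clone A1 without overlap, as were 8.06% of all genes. COL1A1, 1 of these 2, was at log2 -0.64, and none of the 6 passed the threshold. Summed CPM of 5 epithelial markers was 4.72 to 6.21 in clone A1, 6.40 to 9.29 in clone A4 and 8.27 to 10.8 in vector, with KRT19 at or near 0. Of the 4 epithelial markers tested, KRT5 and CDH1 were lower than vector in both clones without overlap, and none passed the threshold. Over all genes tested, 2.26% were lower without overlap in the NCBP2 arm. The part of these marker differences in the results was not tested. Summed CPM reached at most 2.01 for the 5 blood markers and 2.87 for the 3 endothelial markers. In bulk RNA, fewer cells of a type and less RNA per cell cannot be told apart.

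SGK1 was lower in every NCBP2 library than in every vector library. Replicates A, B and C of the vector had 75.9, 80.5 and 85.2 CPM. Clone A1 had 40.6, 40.9 and 26.5 CPM, and clone A4 had 20.1, 30.6 and 17.2 CPM, in the same order. The highest NCBP2 library, clone A1 replicate B, was thus below the lowest vector library, and the 2 clones overlapped each other. These values rest on 768 to 1520 SGK1 counts in the NCBP2 libraries and 3491 to 4126 in vector. SGK1 (ENSG00000118515.11) lies at chr6:134169248-134318112 on GRCh38, on the minus strand.

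Mean SGK1 was 80.5 ± 4.66 CPM in vector, 36.0 ± 8.21 in clone A1 and 22.6 ± 7.04 in clone A4 (SD, n = 3 each). By edgeR this was 2.24-fold lower than vector in clone A1 (log2 -1.16, SE 0.24) and 3.56-fold lower in clone A4 (log2 -1.83, SE 0.25). Over the NCBP2 arm the log2 difference was -1.46 (SE 0.25). The clone comparisons share the 3 vector libraries.

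Clone A4 against clone A1 is a contrast that the choice of genes did not use. SGK1 was lower in clone A4 by a log2 difference of -0.67 (SE 0.24, 95% interval -1.19 to -0.14), and this did not pass the threshold (edgeR quasi-likelihood test, Benjamini-Hochberg adjusted p = 0.567 over all genes tested, unadjusted p = 0.0167). Between the same clones NCBP2 differed by 1.27 on the log2 scale, clone A4 being higher without overlap, with an adjusted p of 0.0764 by the same test. That NCBP2 difference passed the threshold under 4 of 15 alternatives, which were DESeq2, no filter, a replicate block and leaving out clone A4 replicate C (adjusted p = 0.00681 by edgeR).

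**Figure D1:**
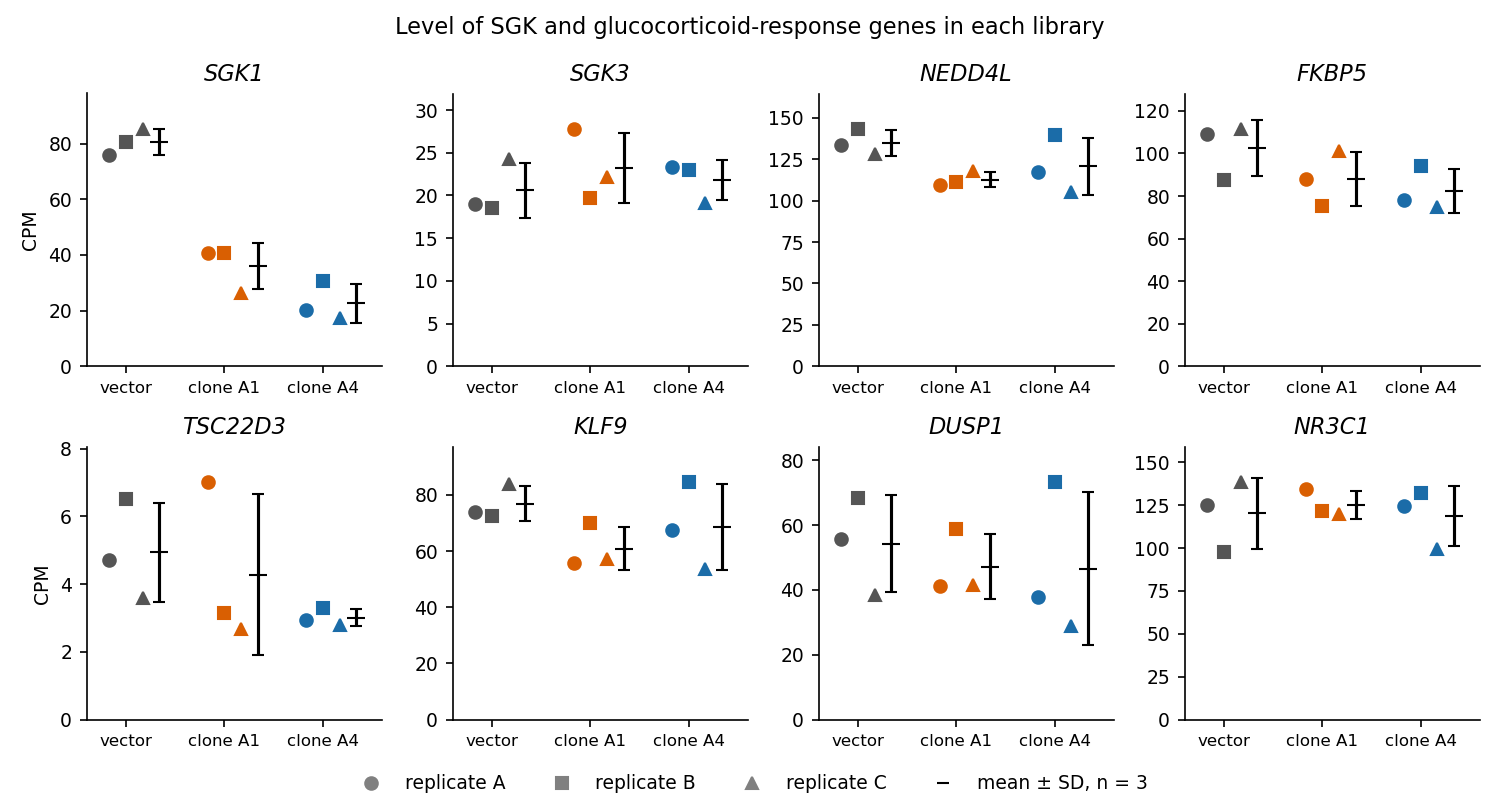
CPM (vertical axis, from 0) of each of the 8 genes in the 9 libraries, by group (horizontal axis), with symbols for replicates and bars for the mean ± SD of 3 libraries. SGK1 in the 6 NCBP2 libraries lies between 17.2 and 40.9 CPM, below the vector range of 75.9 to 85.2, whereas NR3C1 overlaps in all groups.

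NR3C1, the receptor gene, differed by less than its spread between libraries. The vector libraries had 125, 97.5 and 138 CPM, those of clone A1 134, 122 and 120 and those of clone A4 125, 132 and 99.2. The groups overlapped fully, and the lowest and highest libraries of all 9 were both vector. The log2 difference from vector was 0.06 in clone A1 (95% interval -0.33 to 0.44) and -0.02 in clone A4 (-0.40 to 0.37), and neither passed the threshold.

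FKBP5 encodes a receptor co-chaperone that lowers hormone binding and is itself induced by hormone. The vector libraries had 109, 87.4 and 111 CPM, those of clone A1 87.8, 75.4 and 101 and those of clone A4 78.2, 94.2 and 75.0. The groups overlapped, because vector replicate B was below 3 of the NCBP2 libraries. The log2 difference was -0.22 (SE 0.18) in clone A1 and -0.32 (SE 0.18) in clone A4, and neither passed the threshold.

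TSC22D3, which encodes the leucine-zipper protein GILZ, had the lowest level of the 8 genes, also per exon length. The vector libraries had 4.72, 6.50 and 3.59 CPM, those of clone A1 7.003, 3.15 and 2.68 and those of clone A4 2.94, 3.30 and 2.80, from 114 to 333 counts. All clone A4 libraries were below all vector libraries, whereas clone A1 held the highest library, replicate A, and the lowest. The log2 difference was -0.71 in clone A4 (SE 0.40) and -0.21 in clone A1 (SE 0.40), and neither passed the threshold. Without clone A1 replicate A the clone A1 value was -0.75, close to that of clone A4. NCBP2L, a relative of NCBP2, overlaps TSC22D3 on the opposite strand, where 0 to 3 counts were found per library.

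KLF9 is a zinc-finger repressor of growth and clock genes. The vector libraries had 74.1, 72.4 and 83.9 CPM, those of clone A1 55.8, 69.9 and 57.0 and those of clone A4 67.5, 84.4 and 53.7. Clone A1 was below vector without overlap, but clone A4 spanned the vector range. The log2 difference was -0.33 (SE 0.19) in clone A1 and -0.16 (SE 0.19) in clone A4.

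DUSP1 is a nuclear phosphatase that switches off MAP kinases. The vector libraries had 55.8, 68.4 and 38.5 CPM, those of clone A1 41.3, 58.8 and 41.6 and those of clone A4 37.9, 73.2 and 28.8. It varied more within groups than between them, and replicate B was the highest library in each group. The log2 difference was -0.20 (SE 0.32) in clone A1 and -0.22 (SE 0.32) in clone A4.

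NEDD4L, the ligase that SGK1 phosphorylates, had 133, 143 and 128 CPM in the vector libraries, against 109, 111 and 118 for clone A1 and 117, 139 and 105 for clone A4. Clone A1 was below vector without overlap, and clone A4 replicate B lay within the vector range. The log2 difference was -0.26 (SE 0.16) in clone A1 and -0.16 (SE 0.15) in clone A4. SGK3, a kinase of the same family that is bound to endosomes, had 19.0, 18.5 and 24.3 CPM in the vector libraries, against 27.8, 19.8 and 22.2 for clone A1 and 23.3, 22.9 and 19.1 for clone A4. All groups overlapped, and its log2 difference was 0.17 in clone A1 and 0.08 in clone A4 (SE 0.21 each). The read-through gene C8orf44-SGK3 overlaps SGK3 on the same strand in GENCODE release 44, so the SGK3 counts are uncertain to that extent.

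Of the 7 genes other than SGK1, 0 passed the threshold of adjusted p under 0.05 in any comparison by edgeR, where 0.0184% of all genes tested passed in the NCBP2 arm, 0.0646% in clone A1, 0.115% in clone A4, and 0.161% between the 2 clones. None of the 7 had an unadjusted p under 0.05 in these comparisons by edgeR, where 5.71%, 7.51%, 5.25% and 6.63% of all genes did in the same order, and by DESeq2 none of the 7 passed. SGK1, chosen for its low level, was below vector without overlap in each comparison with vector. Of the other 7 genes, none was below vector without overlap in the NCBP2 arm (2.26% of all genes). NEDD4L and KLF9 were in clone A1 (8.06%), and TSC22D3 was in clone A4 (5.86%). The median log2 difference of the 8 genes, with SGK1 included, was -0.22 in clone A1 and -0.19 in clone A4, beside -0.02 and 0.03 over all genes tested. Between the clones, 0 of the 8 separated, where 13.6% of all genes did.

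**Figure D2:**
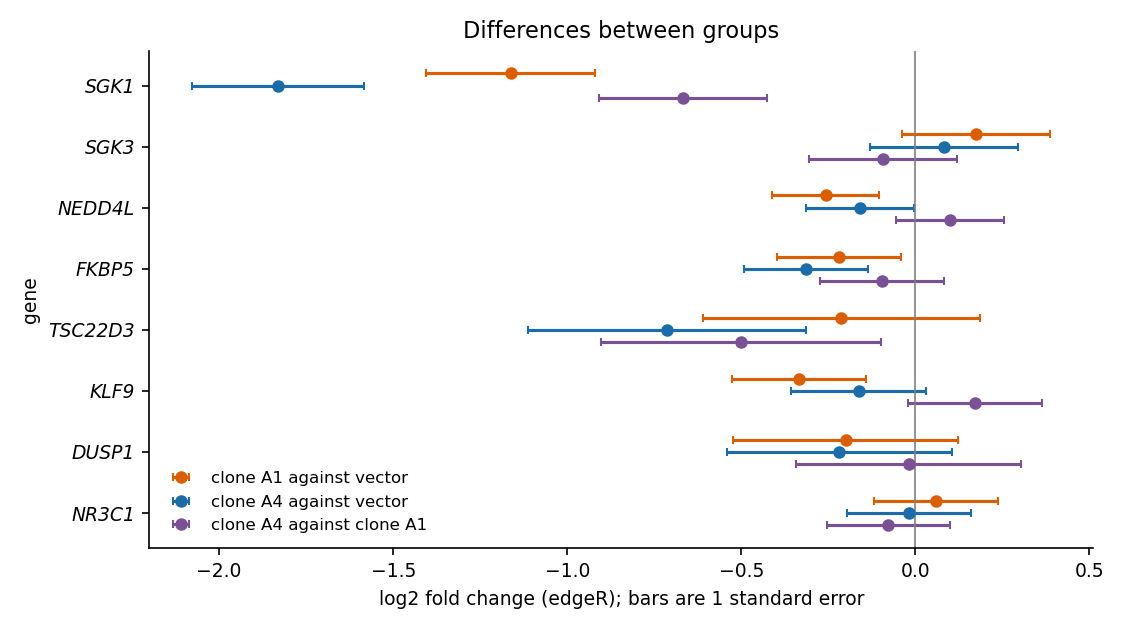
Log2 fold change (horizontal axis) of each gene (vertical axis) in each clone against vector and between the clones (A4 against A1), by edgeR over 9 libraries, with bars of 1 standard error. SGK1 lies at -1.16 and -1.83 against vector, and the other genes lie between -0.71 and 0.17.

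Levels were also compared per kilobase of exon length in the vector libraries. Exon length was that of all exons of a gene's GENCODE release 44 transcripts, merged. It was 34097 bases for NEDD4L, 9962 for SGK1 and 2013 for DUSP1, so the order depends on which transcripts are annotated. DUSP1 was highest at 26.9 CPM per kb, followed by KLF9 at 14.8, NR3C1 at 13.1, FKBP5 at 9.65, SGK1 at 8.08, NEDD4L at 3.95, SGK3 at 3.62 and TSC22D3 at 0.996. The vector libraries of KLF9 and NR3C1, of FKBP5 and SGK1, and of NEDD4L and SGK3 overlapped, so their order is not resolved. SGK1 was at 3.61 CPM per kb in clone A1 and 2.27 in clone A4.

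The genes around SGK1 were read beside it. Of the 20 tested genes on either side, 0 were lower than SGK1 in clone A4 and 4 were lower in clone A1. These 4 had mean levels of at most 0.767 CPM over the 9 libraries. The median log2 difference of these 40 genes was 0.01 in clone A1 and -0.13 in clone A4, and 0 of them passed the threshold. In clone A4, 27 of the 40 were below 0, against 20 in clone A1. Over all genes tested, 46.4% and 51.6% were below 0 in the same order. LINC03002, 0.36 Mb from SGK1 and named after its values were seen, was at -0.82 in clone A1 and -1.35 in clone A4. For the 7 other genes the median of the 40 neighbours ranged from -0.14 to 0.07 in clone A1 and from -0.07 to 0.06 in clone A4. Around DUSP1 it was -0.14 in clone A1, where DUSP1 was at -0.20, and around FKBP5 it was -0.11, where FKBP5 was at -0.22. In clone A4 it was 0.06 around DUSP1, at -0.22 there, and 0.04 around FKBP5, at -0.32 there.

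**Figure D3:**
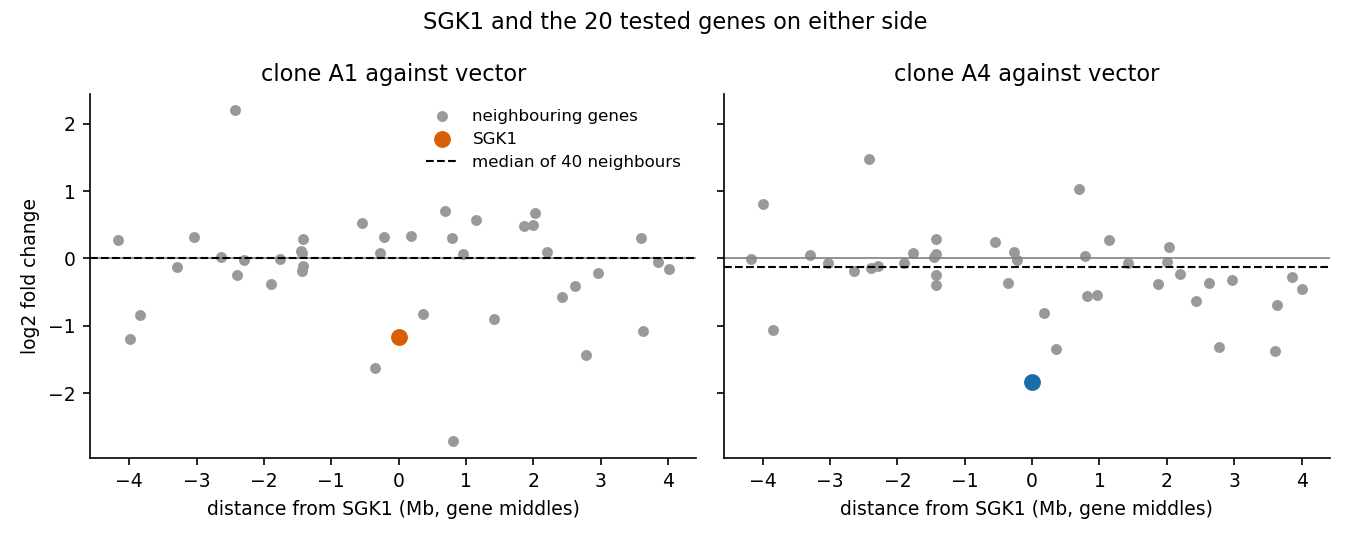
Log2 fold change (vertical axis) of SGK1 and of the 20 tested genes on either side by distance from SGK1 in Mb (horizontal axis), for each clone against vector, with the median of the 40 neighbours dashed. SGK1 is below all neighbours in clone A4, and 4 neighbours are below it in clone A1.

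The genes whose log2 CPM followed SGK1 most closely over the 9 libraries, among 11414 protein-coding genes, were LRATD2 (Pearson r = 0.967), OCLN (0.949), which encodes the tight-junction protein occludin, SPTLC2 (0.945), a subunit of serine palmitoyltransferase, RBM33 (0.944) and ZFHX4 (0.938). The 9 libraries include 3 groups that differ in SGK1, so a gene that differs between the groups in the same order ranks high. LRATD2 was at 155 ± 16.3 CPM in vector, 109 ± 7.41 in clone A1 and 86.6 ± 15.0 in clone A4 (SD, n = 3). Without clone A1 replicate A only LRATD2 stayed among the 5, and by Spearman's rho 0 of the 5 stayed.

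Other targets of the receptor were read from a list of 35 genes that glucocorticoids induce, of which 29 were tested. None passed the threshold in any of the 4 comparisons by edgeR. The median log2 difference was -0.06 in clone A1 and -0.20 in clone A4, with 5 genes lower and 2 higher at unadjusted p under 0.05 in clone A1, and 3 lower and 1 higher in clone A4. Over all genes tested, 7.51% and 5.25% had such a p in the same order, in either direction. The most abundant, ANXA1, which encodes the anti-inflammatory protein annexin A1, was at 277 ± 44.4 CPM in clone A1, 283 ± 62.0 in clone A4 and 264 ± 103 in vector. MT1E, a metallothionein, was at 190 ± 43.3, 183 ± 20.2 and 138 ± 17.6 CPM in the same order. ERRFI1, an inhibitor of the EGF receptor, was at 80.8 ± 10.3, 61.6 ± 5.31 and 80.5 ± 3.66. Below vector without overlap were 3 of the 29 in clone A1 (8.06% of all genes) and 6 in clone A4 (5.86%), with 3 above in each clone. Of the 29, MT1E, CRISPLD2 and BCL6 did not overlap vector in the NCBP2 arm, where 3.74% of all genes did not in either direction. CRISPLD2 and BCL6 are named after their values were seen. CRISPLD2 was higher by 1.03 and 1.05 on the log2 scale, and BCL6 differed by -0.86 and -0.34, none past the threshold by edgeR. DESeq2 called CRISPLD2 in the NCBP2 arm, BCL6 in clone A1 and SCNN1A in clone A4 against vector, and GLUL, at a mean of at most 1.22 CPM in any group, between the clones. Over all genes, DESeq2 called 108, 274, 185 and 246 in these comparisons, in the same order.

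Of 15 genes that glucocorticoids repress, 11 were tested and none passed the threshold by edgeR, with 2 lower in clone A1 and 1 in each direction in clone A4 at unadjusted p under 0.05 (7.51% and 5.25% of all genes, in either direction). Their median log2 difference was -0.50 in clone A1 and -0.04 in clone A4. LIF, a cytokine, was at 49.0 ± 18.7 CPM in clone A1, 61.3 ± 10.0 in clone A4 and 33.0 ± 8.69 in vector. TNFRSF11B, the decoy receptor osteoprotegerin, was at 15.1 ± 1.85, 30.0 ± 4.07 and 27.9 ± 2.79. DESeq2 called it in clone A1 against vector and between the clones, where it called 274 and 246 genes in all. CCL2 and MMP13 overlapped vector in both clones. Of the 11, 4 were below vector without overlap in clone A1 (8.06% of all genes) and 0 in clone A4 (5.86%), and 1 was above in clone A4. Among these 4 were IL6 and ICAM1, named after their values were seen, with group means of at most 0.397 CPM.

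Serum and osmotic stress also act on SGK1. Of 27 immediate-early genes, 24 were tested and none passed by edgeR or DESeq2, with medians of -0.13 in both clones. At unadjusted p under 0.05 by edgeR, 2 were lower in clone A1 and 0 in clone A4 (7.51% and 5.25% of all genes, in either direction). In the NCBP2 arm 3 were lower, FOS, EGR1 and EGR2, named after their values were seen, where 5.71% of all genes had such a p. ANKRD1, CCN1, CCN2 and PHLDA1, the most abundant, overlapped vector in both clones, and CCN2 was at 232 ± 43.6, 217 ± 84.1 and 235 ± 62.1 CPM in clone A1, clone A4 and vector. FOS was lower than vector in both clones without overlap at 2.99 ± 1.46, 3.41 ± 0.37 and 5.95 ± 3.02 CPM. In the NCBP2 arm 2.26% of all genes were lower without overlap. Of 8 osmotic stress genes, 6 were tested and none passed by either tool (2 were lower in clone A1 at unadjusted p under 0.05 by edgeR, as against 7.51% of all genes in either direction), with NFAT5, the tonicity-responsive factor, at 378 ± 91.8, 370 ± 34.0 and 348 ± 74.1 CPM. All 12 TGF-beta induced genes were tested and none passed by edgeR, with 1 in each direction in clone A1 and 2 lower in clone A4 at unadjusted p under 0.05 (7.51% and 5.25% of all genes, in either direction). LTBP2, a matrix protein of that list, was at 120 ± 26.6 CPM in clone A1 and 261 ± 34.8 in vector, where the adjusted p was 0.105 (edgeR) and 0.00127 (DESeq2). In that comparison DESeq2 called 274 genes in all. LTBP2 (chr14:74498183-74612378), FOS (chr14:75278826-75282230) and SPTLC2 (chr14:77505997-77616637), which followed SGK1 closely, lie near each other on chromosome 14. Their positions were looked up after their values were seen, and the part of a shared segment in these values was not tested.

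**Figure D4:**
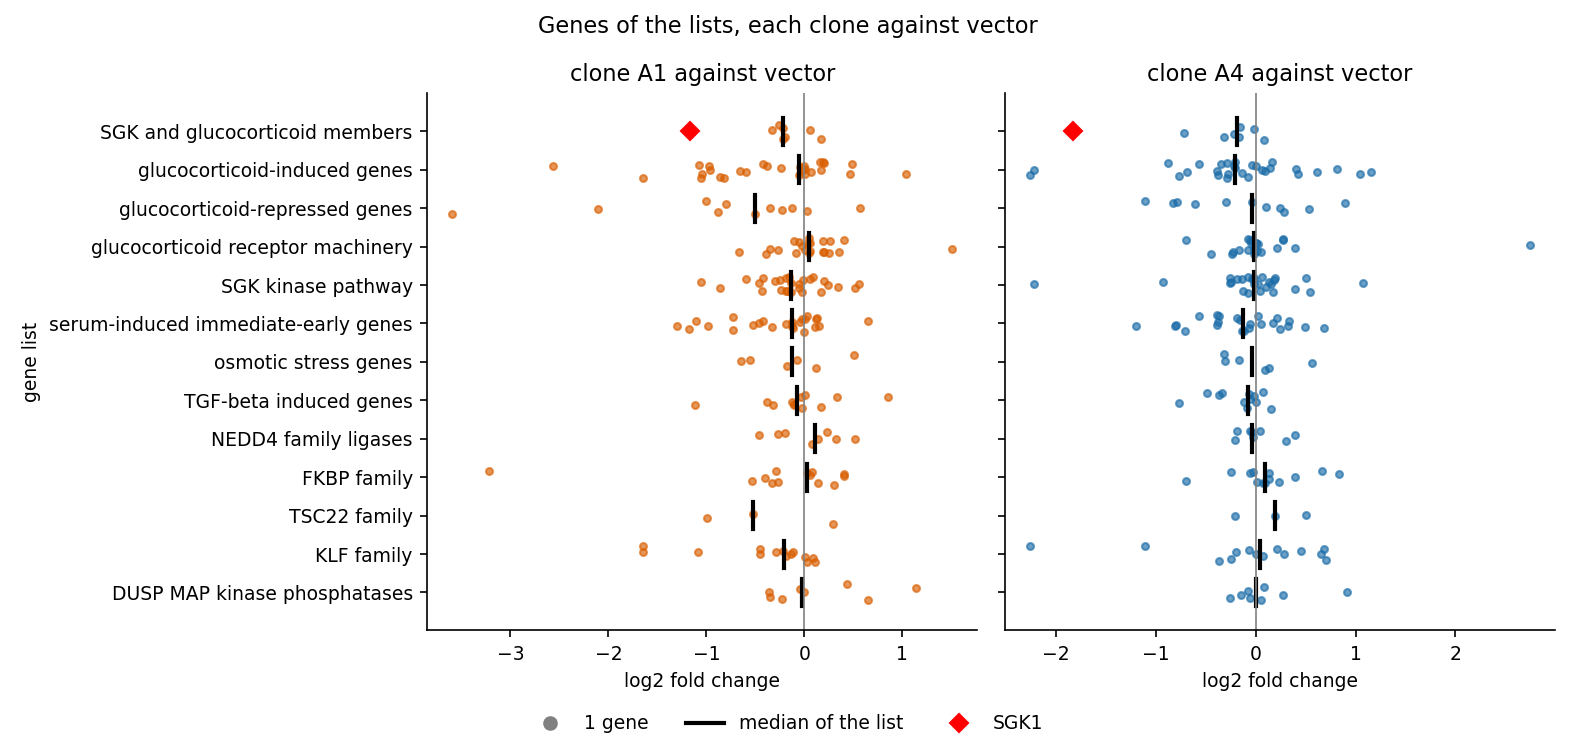
Log2 fold change (horizontal axis) of the tested genes of 13 lists (vertical axis), the 8 genes and 12 others, in clone A1 and clone A4 against vector, with list medians as black bars and SGK1 as a red diamond. SGK1 is the lowest of its list in both panels, and the list medians lie between -0.20 and 0.19 in clone A4 and between -0.52 (TSC22 family) and 0.11 in clone A1.

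Of the 23 genes of the receptor's chaperones, coactivators and hormone enzymes, 22 were tested. Their median log2 difference from vector was 0.05 in clone A1 and -0.02 in clone A4. HSP90AB1, HSPA8, HSP90AA1 and PTGES3, the most abundant chaperones, did not pass in any comparison. FKBP4, the co-chaperone that opposes FKBP5, had 127, 118 and 91.1 CPM in the vector libraries, against 129, 145 and 174 for clone A1 and 65.9, 65.9 and 76.2 for clone A4. All clone A4 libraries were below those of clone A1 and vector. Over all genes, 5.86% were lower in clone A4 than in vector without overlap, and 13.6% separated between the clones in either direction. Clone A1 was above vector without overlap (log2 0.41, SE 0.18), and the log2 difference of clone A4 from vector was -0.70 (SE 0.18). Neither passed the threshold (edgeR adjusted p = 0.642 and 0.347). Only the contrast of clone A4 against clone A1 passed (log2 -1.10, SE 0.18, edgeR adjusted p = 0.0345). There FKBP4 alone of the 22 passed, where 0.161% of all genes did. Leaving out clone A1 replicate B or C, any clone A4 library or vector replicate A ended that call, with adjusted p of 0.0649 to 0.268.

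Of 29 genes of the SGK kinase pathway, 27 were tested. WNK1, a kinase that acts with SGK1 on sodium transport, had 630, 660 and 647 CPM in the vector libraries, against 578, 698 and 744 for clone A1 and 321, 362 and 339 for clone A4. Clone A4 was below both other groups without overlap, and clone A1 overlapped vector. By edgeR WNK1 alone of the 27 passed, where 0.115% of all genes passed in clone A4 against vector and 0.161% between the clones. WNK1 fell in clone A4 against vector (log2 -0.92, SE 0.14, edgeR adjusted p = 0.0301) and against clone A1 (log2 -0.98, SE 0.14, adjusted p = 0.0172). Leaving out any library but clone A1 replicate A ended the first call (adjusted p 0.0528 to 0.321), and leaving out clone A1 replicate B or C, any clone A4 library or vector replicate A ended the second (0.0522 to 0.200). YWHAZ, YWHAQ and GSK3B did not pass in any comparison.

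WNK1 (chr12:752579-911452) and FKBP4 (chr12:2794970-2805423) lie near each other, and their neighbours, looked up after these values were seen, were low in clone A4 too. The 28 tested neighbours of WNK1 had a median log2 difference of -0.79 in clone A4 and 0.04 in clone A1 against vector, and the 40 of FKBP4 had -0.89 and 0.04. These 2 sets overlap, and WNK1 and FKBP4 are each in the other's set, so the medians are not independent. SCNN1A, a subunit of the epithelial sodium channel on the same arm, was at 0.848 ± 0.46 CPM in clone A1, 0.380 ± 0.071 in clone A4 and 1.77 ± 0.92 in vector, and its 40 neighbours had a median of -0.72 in clone A4. The part of this segment in the values of the 3 genes was not tested.

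The relatives of the listed genes were measured as well. All 8 NEDD4 family ligases were tested and none passed by either tool, nor at unadjusted p under 0.05 by edgeR, and NEDD4 was at 92.7 ± 20.9, 63.3 ± 17.0 and 64.6 ± 23.5 CPM in clone A1, clone A4 and vector. Of 14 FKBP genes, 13 were tested and FKBP4 alone passed by edgeR, between the clones, where 0.161% of all genes passed. In the TSC22 family, TSC22D1 was lower (131 ± 12.2 CPM in vector, 91.5 ± 6.23 in clone A1, 113 ± 5.33 in clone A4) and TSC22D2 higher (85.6 ± 9.75, 105 ± 7.45 and 121 ± 12.9) than vector in both clones without overlap, and neither passed by either tool. In the NCBP2 arm 3.74% of all genes did not overlap vector, in either direction. There 1 of the 3 TSC22 genes was higher and 1 lower at unadjusted p under 0.05 by edgeR, as against 5.71% of all genes. Of 17 KLF genes 14 were tested, and of 9 DUSP phosphatases 8, with none past the threshold by either tool. At unadjusted p under 0.05 by edgeR, 1 KLF gene was higher in clone A4 (5.25% of all genes had such a p there, in either direction) and 2 DUSP genes were higher in clone A1 (7.51%). DUSP16 was above vector in both clones without overlap, at 79.4 ± 3.58 CPM in clone A1, 71.0 ± 4.36 in clone A4 and 58.9 ± 5.22 in vector. The share of all genes without overlap in the arm, 3.74% in either direction, applies here too.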

How the data were processed

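The authors deposited 1 table per library of raw read counts per gene, whole numbers with no scaling. Per the submitters' processing notes, STAR 2.7.1a and GRCh38 were used; the annotation is not given in the sources used here. Column 3, which held most stranded counts, was taken as the gene's strand. The 4 opening lines that name no gene (44.5% to 63.6% of reads) were left out. Of 60609 identifiers, 60295 were matched to GENCODE release 44. Groups came from the titles.

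All genes were fitted with edgeR 4.0.16 in R 4.3.3 (robust quasi-likelihood test, filterByExpr defaults, TMM scaling). The threshold was a Benjamini-Hochberg adjusted p under 0.05 over all genes tested. One fit had 2 groups (NCBP2 arm, vector), another 3 (clone A1, clone A4, vector), with the spread shared over 9 libraries. CPM used TMM-scaled totals, and log2 CPM a prior count of 2. Neighbours are the 20 tested genes on either side. The fits were tested on simulated data. The members and gene lists were chosen with earlier results of these data known. Named list genes are those past the threshold and up to 4 more per list with the highest mean CPM, and the 5 genes most like SGK1 had a mean log2 CPM of at least 1. A few genes that this rule names are not reported here. Alternatives were DESeq2 1.42.0, other size factors, no filter, counts without regard to strand, a replicate block, counts summed per clone, fits of 6 libraries, and leaving out each library. Intervals cover the spread between libraries. Reads have no molecular identifiers.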

Additional observations from a re-analysis of the deposited data

Results flagged for a closer look

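NEDD4L stood out in the 6 NCBP2 libraries because clone A4 replicate B, at 139 CPM, lay far from the other 5. TSC22D3 stood out likewise because clone A1 replicate A, at 7.003 CPM, lay far above the rest; this library is also the one that stood apart over all genes. Chance alone marks about 1 in 20 such groups, and 8 genes were looked at. FKBP4 differed between the 2 NCBP2 clones (log2 -1.10 in clone A4 against clone A1), as did WNK1 (log2 -0.98), by edgeR's test of that difference.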

How the results depend on the processing

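SGK1 kept its direction in all 4 comparisons under all 15 alternatives of each. Against vector, that direction was part of the choice of SGK1 from these same data, so keeping it is a description only. Its log2 difference ranged from -1.58 to -1.34 in the NCBP2 arm, -1.28 to -0.99 in clone A1 and -2.13 to -1.68 in clone A4 against vector. The other 7 genes passed the threshold under none of the alternatives. Counts of genes called, in the order NCBP2 arm, clone A1, clone A4 and clone A4 against clone A1, were 4, 14, 25 and 35. They were 108, 274, 185 and 246 by DESeq2, and 20, 312, 163 and 231 with no filter on low counts. The replicate letters were not taken to pair the libraries. Correlations of deviations from group means were -0.102 to 0.179 for libraries of the same letter and -0.271 to 0.221 for different letters. These ranges overlap and do not decide whether the letters pair libraries. A replicate block gave 13, 38, 53 and 51. Counts summed per clone gave 0 in the NCBP2 arm by edgeR, with 906 genes at unadjusted p under 0.05. Fitting only the 6 libraries compared gave 7 in clone A1. Leaving out 1 library gave 1 to 8, 3 to 14, 7 to 41 and 10 to 56. The causes were not tested.

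Small differences changed sign. NR3C1 in the NCBP2 arm was -0.00575 with counts without regard to strand. Leaving out 1 library gave these ranges of log2 difference. In clone A4 against clone A1 they were -0.20 to 0.051 for SGK3, -0.030 to 0.17 for NEDD4L, -0.21 to 0.018 for FKBP5, -0.75 to 0.047 for TSC22D3, -0.019 to 0.30 for KLF9, -0.52 to 0.22 for DUSP1 and -0.17 to 0.019 for NR3C1. In clone A1 against vector they were -0.75 to 0.034 for TSC22D3, -0.41 to 0.0040 for DUSP1, -0.069 to 0.16 for NR3C1 and -0.022 to 0.16 for WNK1. In clone A4 against vector they were -0.72 to 0.015 for DUSP1 and -0.15 to 0.081 for NR3C1. In the NCBP2 arm they were -0.11 to 0.12 for NR3C1 and -0.22 to 0.071 for FKBP4. Fitting only the 6 libraries compared ended the calls of WNK1 (adjusted p 0.0729 against vector and 0.0709 between the clones) and FKBP4 (0.0630). Summed over 12 gene lists and the comparisons, with a gene counted in each list that holds it, edgeR gave 4 calls, DESeq2 12 and no filter 11.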
